A study of Rattus norvegicus with 8 samples.

Results

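Amino acid transporters are membrane proteins that carry amino acids into cells, out of cells and across organelle membranes. In the rat arrays analysed here they were taken as every probe whose gene name is a member of the solute carrier families Slc1a, Slc3a, Slc6a, Slc7a, Slc36a, Slc38a or Slc43a. This gave 75 of the 30367 probes, for 60 of 26214 gene names. The rule uses names only and no measured value, so it also takes in Slc6 members that carry monoamines or creatine.

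Ovary RNA from immature female rats was hybridised to 8 Agilent 1-colour arrays, 4 labelled PMSG and 4 labelled control. Rats of the first group received 50 IU of pregnant mare serum gonadotropin (PMSG), a hormone preparation with mainly follicle-stimulating activity,, given under the skin at 26 days of age in a volume of 0.2 ml of albumin phosphate buffer. Rats of the control group received the buffer alone, although the sample titles call them untreated, and ovaries of both groups were taken 48 h later, at 28 days. The labels name no strain and do not say whether an array holds RNA of 1 animal or of several, so p-values measure the spread between these samples only.

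Amino acid transport follows a few well-known schemes. Light chains of the Slc7 family pair with a heavy chain, Slc3a2 (4F2hc, CD98) or Slc3a1 (rBAT), and exchange one amino acid for another. Slc38, Slc6 and most Slc1 members are driven by sodium, and Slc36 members by protons. In the ovary, granulosa and cumulus cells take up amino acids and pass some of them to the oocyte through gap junctions, and the oocyte itself uses the glycine transporter Slc6a9 to control its volume.

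Several transporter genes, Slc7a11 among them, are known targets of the transcription factor ATF4, which is made when amino acids run short and binds a C/EBP-ATF response element. The 8-letter core of that element, TGATGNAA, was searched on both strands of RefSeq promoters of the GRCr8 assembly, each 300 bases long, from 250 before to 50 after a gene's start. It was the only motif searched. It was present in 3 of the 46 transporter genes that had a promoter in the table (6.52%), against 4.16% of all genes and 3.98% of all 33469 promoters. Slc7a11 was not among these 3. A match is a match of letters and no evidence of binding. The 3 stretches are shown because their genes are among the transporters followed array by array below. They read 5′ to 3′ along the gene's own strand, with the motif in capitals, at chr14:98761733-98761812 (minus strand), chr7:129681500-129681579 (minus strand) and chr12:11664408-11664487 (plus strand).
Slc1a4 promoter: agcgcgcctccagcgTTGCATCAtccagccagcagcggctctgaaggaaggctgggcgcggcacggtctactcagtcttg
Slc38a1 promoter: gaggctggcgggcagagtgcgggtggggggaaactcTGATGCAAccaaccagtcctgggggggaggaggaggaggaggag
Slc7a1 promoter: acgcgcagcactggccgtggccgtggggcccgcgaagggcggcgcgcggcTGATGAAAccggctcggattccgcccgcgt
The motif lies 235 to 228 bases before the start of Slc1a4, where it is on the reverse strand, 142 to 135 bases before that of Slc38a1 and 30 to 23 bases before that of Slc7a1. Of these 3 genes, Slc7a1 was lower in arrays labelled PMSG by 1 of its 2 tested probes, and Slc1a4 and Slc38a1 did not pass the test.

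Levels below are log2 processed signals minus the array's own 75th percentile, so they compare arrays for one probe and never one gene with another. A series of 4 values gives arrays 1 to 4 in order, and control 2 or PMSG 4 names a single array of that label. Differences are PMSG-labelled minus control-labelled, with their standard error (SE), tested with limma and Benjamini-Hochberg adjustment over all 25303 tested probes at a threshold of 0.05. A probe was tested where it was well above background on at least 4 of the 8 arrays, and a gene stands for its tested probe with the highest mean over all arrays.

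The 75th percentile of the signal lay between 769 and 1103 on the 8 arrays, 80.8% to 84.6% of probes were well above background, and no spot was saturated. Correlations between arrays were 0.980 to 0.992 within a label and 0.969 to 0.978 between labels. The granulosa cell markers Amh, Foxl2 and Fshr and the theca cell marker Cyp17a1 had signals above background on every array. Lhcgr (-1.93, adjusted p = 0.00114), Star (-2.75, adjusted p = 0.00541) and Cyp11a1 (-3.36, adjusted p = 0.000232 by limma) were lower in arrays labelled PMSG, the opposite of what gonadotropins are known for. All directions here therefore follow the labels alone. Several cell type marker lists moved with the label. As a background for these and later marker lists, 34.5% of all tested genes passed the threshold, 18.0% higher and 16.5% lower. All 11 oocyte markers were higher in arrays labelled PMSG, where their mean level ran from -0.82 to -0.06, against -2.70 to -1.81 in arrays labelled control. Of 7 markers of the oviduct and ovarian surface epithelium, 5 were higher (mean level -0.39 to 0.16 against -2.00 to -1.42), and of 8 leukocyte markers 5 were higher (0.49 to 0.65 against -0.09 to 0.22). Of 8 granulosa cell markers, 1 was higher and 3 were lower, with overlapping mean levels (2.45 to 2.76 against 2.28 to 3.07). This overlap hides opposite differences of single markers. Amh was higher (3.03, adjusted p = 0.000261 by limma), Nr5a2 (-1.47), Inhba (-1.32) and Fst (-1.05) were lower, and 4 did not pass. Of 7 theca and luteal cell markers, 4 were lower and 1 higher (0.59 to 1.64 against 2.45 to 2.65). The higher one was the theca cell product Insl3 (2.60, adjusted p = 0.000347 by limma). Cyp17a1 (-0.22, adjusted p = 0.483) and Hsd3b1 (0.07, adjusted p = 0.719) did not pass, so this list did not move as one. Of 8 endothelial markers 4 were lower and 1 higher (-1.26 to -1.01 against -0.90 to -0.69). The higher one was Vwf (0.50, adjusted p = 0.00907 by limma). Pecam1 (-0.16), Cdh5 (0.54) and Emcn (-0.46) did not pass, so the endothelial list did not move as one either. In a whole ovary, fewer cells of a type and less RNA per cell cannot be told apart. The part of these cell types in the transporter results was not tested.

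Of the 60 transporter genes, 55 were tested, and 53 of these had signals above background on each of the 8 arrays. In all, 18 passed the threshold (32.7%), 11 higher and 7 lower in arrays labelled PMSG. Over all 21926 tested genes the share past the threshold was 34.5%, with 18.0% higher and 16.5% lower, against 20% and 12.7% of the transporters. The transporters were thus called about as often as other genes. A difference of at least 2-fold that passed the threshold was seen in 9 transporters (16.4%, against 12.0% of all genes). The 2 groups of arrays did not overlap in 17 transporters (30.9%, against 37.0% of all genes). The median difference was 0.24, against 0.12 for all genes, and single genes ran from -1.45 to 1.63. Centring each array on its median in place of its 75th percentile gave 9 higher and 11 lower (45.0% of the calls higher, against 61.1%), and moved the median of all tested probes from 0.11 to -0.05.

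**Figure D1:**
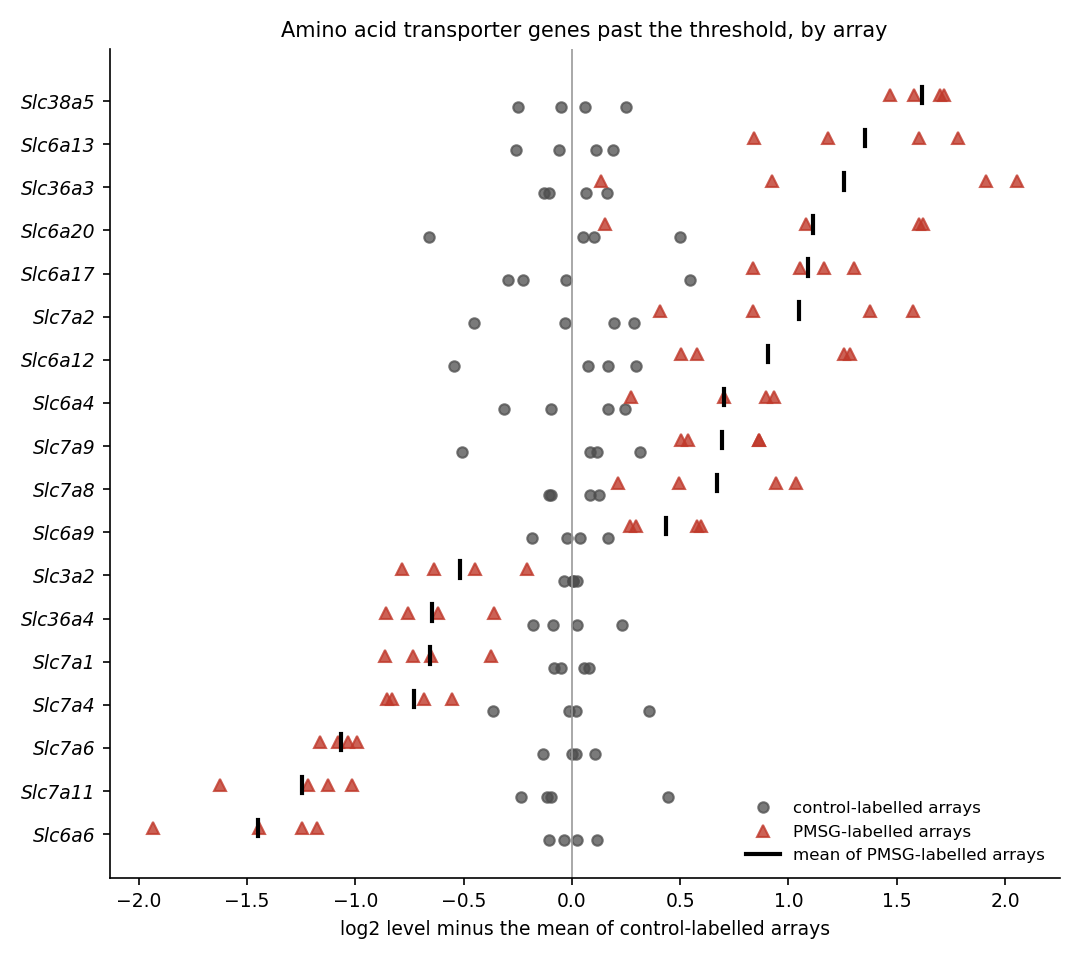
Each of the 18 transporter genes past the threshold is plotted by array, as its log2 level minus the mean of the 4 control-labelled arrays, with grey circles for control-labelled arrays, red triangles for PMSG-labelled arrays and a black bar at the mean of the latter. The groups overlap for Slc36a3 and Slc6a20 and for none of the other 16.

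Transporters spread more between arrays of the same label than the typical probe. The median SD over the tested transporter genes was 0.21 in control-labelled and 0.38 in PMSG-labelled arrays, against 0.16 and 0.27 over all tested probes. The mean level over the tested transporters was -2.85, -3.07, -2.68 and -2.87 on control-labelled arrays and -2.55, -2.69, -2.54 and -2.92 on PMSG-labelled arrays, so these ranges overlapped.

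The 2 heavy chains did not move together. Slc3a2, the heavy chain of most light chains, lay at 1.41, 1.45, 1.45 and 1.47 on control-labelled arrays and at 0.66, 1.24, 1.00 and 0.81 on PMSG-labelled arrays. Every PMSG-labelled array was below every control-labelled one. The difference was -0.52 (SE 0.13, adjusted p = 0.0174 by limma), or 1.43-fold lower. Slc3a1, the heavy chain of the renal cystine transporter, had a difference of 0.43 that missed the threshold (adjusted p = 0.0604).

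Of the 10 light chains, 4 passed the threshold, in both directions (40%, against 34.5% of all genes). Slc7a11 and Slc7a6 were lower in arrays labelled PMSG, and Slc7a8 and Slc7a9 were higher. Slc7a11 (xCT) imports cystine in exchange for glutamate and so feeds glutathione synthesis. It lay at -1.54, -1.52, -1.66 and -0.98 on control-labelled arrays and at -2.64, -2.44, -2.55 and -3.05 on PMSG-labelled arrays. Its groups did not overlap, and the difference was -1.25 (SE 0.19, adjusted p = 0.00165 by limma), or 2.37-fold. A second Slc7a11 probe was well above background on 1 control-labelled and 0 PMSG-labelled arrays and was not tested.

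Slc7a6 (y+LAT2) exports arginine and other cationic amino acids in exchange for neutral ones and sodium. It lay at 0.95, 0.93, 0.80 and 1.04 on control-labelled arrays and at -0.23, -0.06, -0.10 and -0.15 on PMSG-labelled arrays, 2 narrow bands with a wide gap between them. The difference was -1.07 (SE 0.09, adjusted p = 0.000182 by limma). Slc7a7 (y+LAT1), which does the same exchange, differed by -0.62 and did not pass (adjusted p = 0.0646).

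Slc7a8 (LAT2), an exchanger of small and large neutral amino acids, lay at 3.54, 3.32, 3.50 and 3.31 on control-labelled arrays and at 4.45, 4.36, 3.91 and 3.63 on PMSG-labelled arrays. The lowest PMSG-labelled array was just above the highest control-labelled one. The difference was 0.67 (SE 0.19, adjusted p = 0.0260 by limma). This call was lost with median centring (adjusted p = 0.0504) and when control 2, control 4, PMSG 1 or PMSG 2 was left out (adjusted p = 0.0598 to 0.0690). Slc7a9, the cystine and cationic amino acid exchanger that pairs with Slc3a1, lay at -3.40, -3.37, -3.17 and -3.99 on control-labelled arrays and at -2.98, -2.95, -2.62 and -2.62 on PMSG-labelled arrays. It differed by 0.69 (SE 0.19, adjusted p = 0.0240 by limma), and its call was lost with quantile normalisation (0.51, adjusted p = 0.0688), with median centring (0.52, adjusted p = 0.0718) and without PMSG array 3 (adjusted p = 0.0581). Of 3 tested kidney tubule markers, Slc12a1 passed as higher and Umod and Lrp2 did not pass. Their mean level was -4.15 to -3.59 on control-labelled and -3.13 to -2.36 on PMSG-labelled arrays, and a further marker, Slc34a1, was above background on 1 array. Their part in the levels of Slc7a9 and the other renal transporters was not tested.

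Slc7a5 (LAT1), the importer of leucine and other large neutral amino acids, lay at -2.22, -2.29, -2.28 and -2.03 on control-labelled arrays and at -1.81, -1.21, -1.59 and -2.37 on PMSG-labelled arrays. The groups overlapped through PMSG array 4 alone, and the difference of 0.46 (SE 0.23) did not pass the test (adjusted p = 0.149 by limma). Without PMSG array 4 it was 0.67 and passed (adjusted p = 0.0132). So of the heavy chain and light chains that make up the transporter CD98-LAT1, the heavy chain Slc3a2 was lower and the light chain Slc7a5 did not pass. The remaining light chains ran from -1.07 for Slc7a12 (adjusted p = 0.0744) to 1.63 for Slc7a10, and none of them passed.

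Of the 5 cationic amino acid transporters, Slc7a2 was higher and Slc7a1 and Slc7a4 were lower in arrays labelled PMSG. These 3 are 60% of a small group, against 34.5% of all genes. Slc7a1 (CAT1), the widely expressed carrier of arginine, lysine and ornithine, lay at -0.36, -0.49, -0.52 and -0.38 on control-labelled arrays and at -1.30, -0.81, -1.17 and -1.09 on PMSG-labelled arrays. These did not overlap, and the difference was -0.66 (SE 0.12, adjusted p = 0.00415 by limma). A second Slc7a1 probe, described below, differed by 0.43 and did not pass (adjusted p = 0.203). Slc7a2 (CAT2), which carries the same amino acids and is known for arginine supply to activated macrophages, lay at -5.64, -6.38, -5.73 and -5.96 on control-labelled arrays and at -4.35, -5.09, -4.55 and -5.52 on PMSG-labelled arrays. Its difference was 1.05 (SE 0.28, adjusted p = 0.0207 by limma), with PMSG array 4 close to the control-labelled arrays. Slc7a2 no longer passed when control 2, control 4 or PMSG 3 was left out (adjusted p = 0.0519 to 0.0553), and its difference was 0.40 with normexp background correction (adjusted p = 0.0458). Slc7a4, a relative with no firmly known substrate, lay at -4.03, -4.38, -4.00 and -3.66 against -4.87, -4.85, -4.70 and -4.57, without overlap. It differed by -0.73 (SE 0.16, adjusted p = 0.00905 by limma), and by -0.24 (adjusted p = 0.0976) with normexp background correction at an offset of 50. Slc7a3 (-0.11) and Slc7a14 (-0.20) did not pass.

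The Slc6 family had 18 genes on the array, of which 14 were tested and 7 passed (50%, against 34.5% of all genes). Of these 7, 6 were higher in arrays labelled PMSG (42.9% of those tested, against 18.0% of all genes). The other, Slc6a6, was lower (7.14%, against 16.5%). Slc6a6 (TauT) takes up taurine, which cells use as an osmolyte. It lay at 1.71, 1.78, 1.93 and 1.84 on control-labelled arrays and at 0.57, 0.37, -0.12 and 0.64 on PMSG-labelled arrays. No PMSG-labelled array came near the control-labelled ones. The difference of -1.45 (SE 0.17, adjusted p = 0.000554 by limma), or 2.73-fold, was the most negative of the 55 tested transporters, measured by the probe at chr4:125945563-125945622 (rn4, plus strand).

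Slc6a13 (GAT2) and Slc6a12 (BGT1) carry the amino acid GABA, and betaine is a further substrate of the latter. The Slc6a13 probe lay at -5.06, -5.23, -4.98 and -5.43 on control-labelled arrays and at -4.33, -3.99, -3.39 and -3.57 on PMSG-labelled arrays, without overlap. It differed by 1.35 (SE 0.21, adjusted p = 0.00204 by limma), or 2.55-fold. With normexp background correction the Slc6a13 difference was 0.65 (adjusted p = 0.0038). The Slc6a12 probe lay at -3.12, -2.41, -2.28 and -2.50 against -1.29, -2.00, -1.32 and -2.07, also without overlap. Its difference was 0.91 (SE 0.25, adjusted p = 0.0257 by limma), which no longer passed when control 1, control 4, PMSG 1 or PMSG 3 was left out (adjusted p = 0.0540 to 0.0648). On rn4 the 2 probes lie on chromosome 4, at chr4:157771827-157771886 and chr4:157799589-157799648. Slc6a11 (GAT3), another GABA carrier, differed by 0.63 and did not pass (adjusted p = 0.0613).

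Slc6a17, a neutral amino acid carrier of synaptic vesicles, lay at -5.30, -5.10, -4.53 and -5.37 on control-labelled arrays and at -3.91, -4.02, -3.77 and -4.24 on PMSG-labelled arrays. Its groups did not overlap, and it differed by 1.09 (SE 0.20, adjusted p = 0.00394 by limma), or by 0.52 with normexp background correction (adjusted p = 0.0092). Slc6a20, a carrier of proline and other imino acids, lay at -5.29, -4.58, -4.53 and -4.13 against -3.01, -3.55, -3.03 and -4.48. PMSG array 4 lay within the control-labelled range, and the difference of 1.11 (SE 0.37) was just past the threshold (adjusted p = 0.0475 by limma). Leaving out control 1, 2 or 3 or PMSG 1, 2 or 3 ended this call (adjusted p = 0.0822 to 0.113), as did testing all probes without the filter on dim ones (adjusted p = 0.0600). Its difference was 0.61 with normexp background correction (adjusted p = 0.0395). The proline carrier Slc6a7 differed by -0.59 and did not pass (adjusted p = 0.0580).

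Slc6a9 (GlyT1), the glycine carrier named above for the oocyte, lay at -2.37, -2.59, -2.24 and -2.43 on control-labelled arrays and at -1.83, -2.11, -1.81 and -2.14 on PMSG-labelled arrays. The groups did not overlap, and the difference was 0.43 (SE 0.12, adjusted p = 0.0272 by limma). Its second probe differed by 0.59 and did not pass (adjusted p = 0.0941). The Slc6a9 call was lost when control 1, 2 or 4 or PMSG 1 or 3 was left out (adjusted p = 0.0582 to 0.0779) and with median centring (adjusted p = 0.0827). The oocyte markers, which were higher on the same arrays, are given above, and their part in the Slc6a9 difference was not tested. Slc6a4, the serotonin transporter, lay at -4.70, -4.48, -4.22 and -4.14 against -3.68, -3.49, -3.45 and -4.11, groups that almost touch. It differed by 0.70 (SE 0.19, adjusted p = 0.0203 by limma), and no longer passed when control 1, control 2 or PMSG 2 was left out (adjusted p = 0.0533 to 0.0558). With normexp background correction the Slc6a4 difference was 0.41 (adjusted p = 0.0295).

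Among the 11 sodium-coupled Slc38 transporters, Slc38a5 was the only one that passed (9.09%, against 34.5% of all genes). Slc38a5 (SN2) carries glutamine, serine, histidine and glycine with sodium and in exchange for protons. It lay at -1.74, -1.63, -1.44 and -1.94 on control-labelled arrays and at 0.03, -0.22, 0.01 and -0.11 on PMSG-labelled arrays. All 4 PMSG-labelled arrays were well above the control-labelled ones. The difference was 1.62 (SE 0.13, adjusted p = 0.00012 by limma), or 3.07-fold, the largest among the 18 transporters that passed, measured by the probe at chrX:26244421-26244480 (rn4, minus strand).

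The best-known Slc38 members did not pass. Slc38a2 (SNAT2), the system A carrier that amino acid shortage induces, lay at 1.73, 1.67, 1.40 and 1.57 on control-labelled arrays and at 1.51, 1.40, 1.08 and 1.81 on PMSG-labelled arrays, a difference of -0.14 (SE 0.16, adjusted p = 0.514 by limma). Slc38a3 (SN1), which cumulus cells are known to use to supply the oocyte with amino acids, lay at -4.94, -4.69, -4.26 and -4.76 against -3.76, -4.64, -3.61 and -4.93, with overlap and a difference of 0.42 (SE 0.31, adjusted p = 0.319 by limma). Slc38a1 (SNAT1), a glutamine importer, lay at -4.80, -4.20, -4.09 and -5.05 against -5.49, -5.43, -5.41 and -4.57. PMSG array 4 alone overlapped the control-labelled arrays. The Slc38a1 difference was -0.69 (SE 0.28, adjusted p = 0.0955 by limma), and without PMSG array 4 it was -0.91 and passed (adjusted p = 0.0207). Without that array 45.1% of all tested probes passed, against 34.2% with it. The other 7 Slc38 genes ran from -0.25 for Slc38a10 to 0.29 for Slc38a11. Slc38a10 was the 1 gene that missed the threshold although its groups did not overlap (adjusted p = 0.0971), and Slc38a9, a lysosomal arginine sensor, differed by -0.18 (adjusted p = 0.290).

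**Figure D2:**
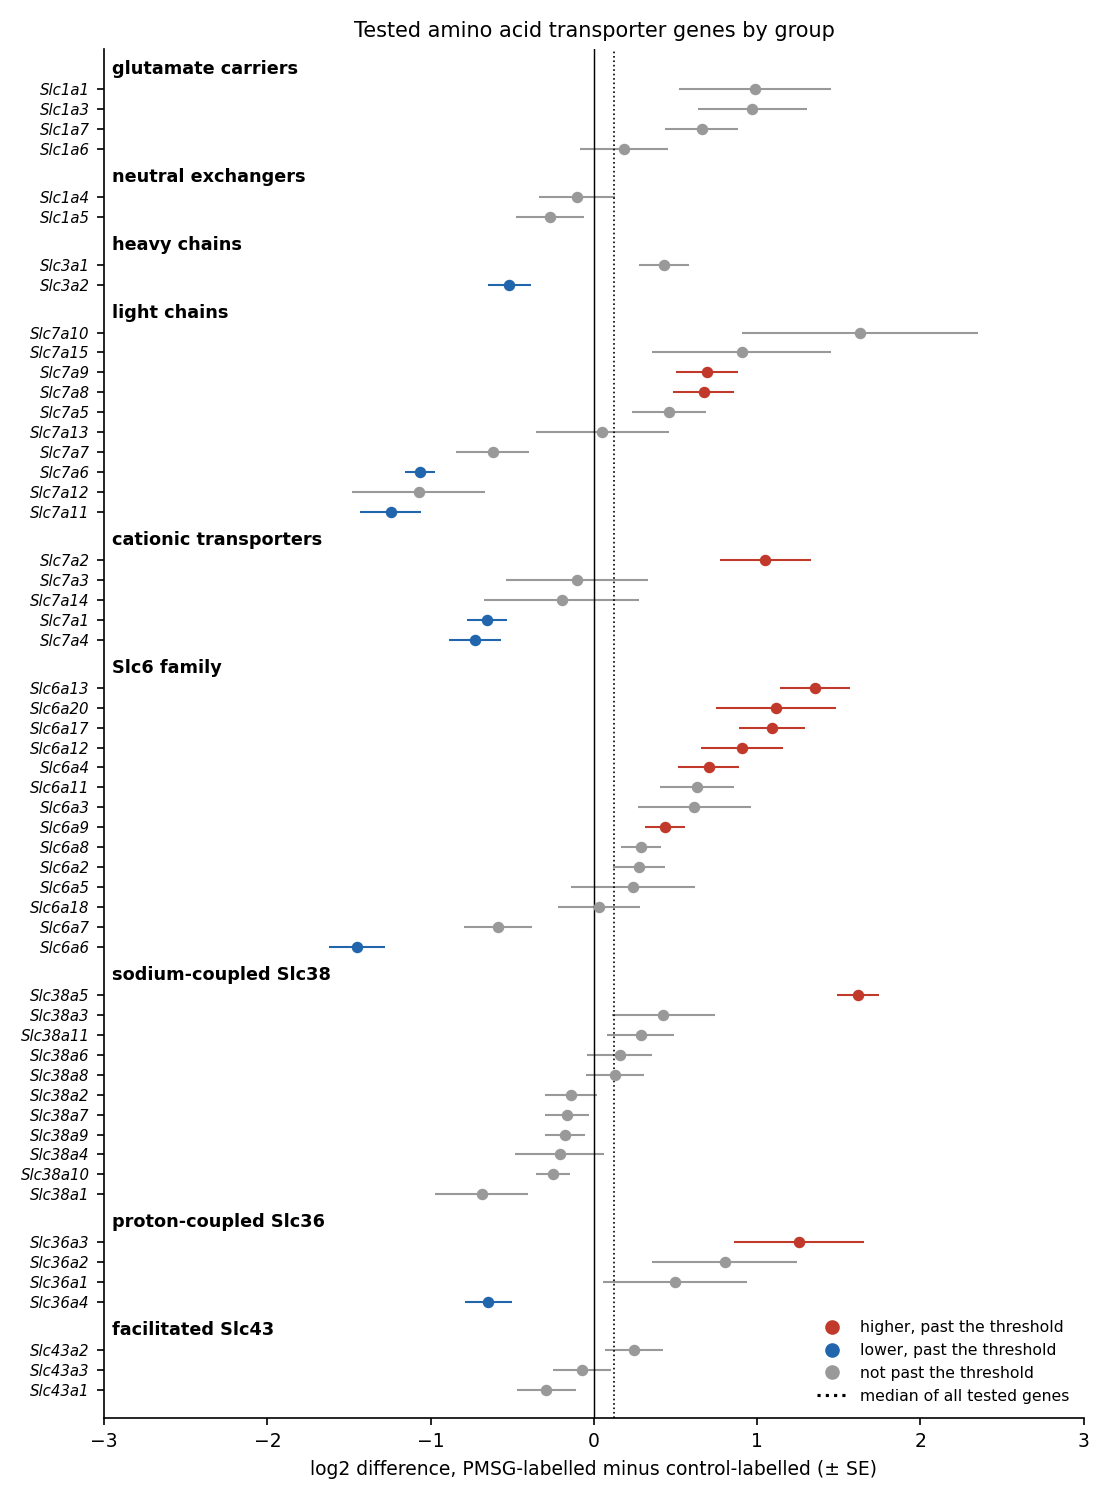
Log2 difference, PMSG-labelled minus control-labelled, with its SE, for the 55 tested transporter genes sorted within 9 groups by family and role. Red points passed the threshold as higher and blue points as lower, grey points did not pass, and the dotted line is the median of all tested genes at 0.12. Slc38a5 at 1.62 and Slc6a6 at -1.45 are the outermost coloured points.

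Neither the Slc1 nor the Slc43 family had a gene past the threshold (0%, against 34.5% of all genes). These shares rest on few genes, 4 glutamate carriers and 2 neutral exchangers of Slc1 and 3 Slc43 genes. Of the Slc1 glutamate carriers, Slc1a1 (EAAC1) lay at -5.37, -5.62, -3.78 and -5.90 on control-labelled arrays and at -4.49, -4.44, -4.37 and -3.44 on PMSG-labelled arrays. Control array 3 lay above 3 of the PMSG-labelled arrays, and the difference of 0.99 (SE 0.47) did not pass (adjusted p = 0.136 by limma). Without control array 3 it was 1.45 and passed (adjusted p = 0.00900). Slc1a3 (GLAST), at 0.97, and Slc1a7, at 0.66, lay just outside the threshold (adjusted p = 0.0543 and 0.0516), and both passed with quantile normalisation. Their second probes differed by only 0.13 and 0.19 (adjusted p = 0.794 and 0.552 by limma). Slc1a2 (GLT1) reached a signal above background on 0 arrays.

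The neutral exchangers of the Slc1 family, which serve many dividing cells, showed overlapping groups. Slc1a5 (ASCT2), an exchanger of glutamine, lay at -0.56, -0.73, 0.06 and -0.44 on control-labelled arrays and at -0.76, -0.63, -0.33 and -1.03 on PMSG-labelled arrays, a difference of -0.27 (SE 0.21, adjusted p = 0.336 by limma). Slc1a4 (ASCT1), an exchanger of serine and alanine, lay at -3.68, -3.29, -3.34 and -3.43 against -3.54, -2.89, -3.69 and -4.03, a difference of -0.10 (SE 0.23, adjusted p = 0.745 by limma). Slc43a1 and Slc43a2 let neutral amino acids through without an ion gradient. Slc43a2 (LAT4) lay at -2.56, -2.62, -2.41 and -2.61 against -2.01, -2.49, -2.00 and -2.73, with overlap and a difference of 0.25 (SE 0.18, adjusted p = 0.309 by limma). Its second probe differed by -0.15 (adjusted p = 0.436), Slc43a1 (LAT3) by -0.29 (adjusted p = 0.237) and Slc43a3 by -0.07 (adjusted p = 0.765).

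In the proton-coupled Slc36 family, 2 of 4 tested genes passed (50%, against 34.5% of all genes), Slc36a3 as higher and Slc36a4 as lower. Slc36a3 lay at -5.94, -6.11, -5.84 and -6.13 on control-labelled arrays and at -3.95, -5.08, -4.09 and -5.87 on PMSG-labelled arrays. PMSG array 4 sat within the control-labelled range and PMSG arrays 1 and 3 far above it. The difference was 1.25 (SE 0.40, adjusted p = 0.0416 by limma). The Slc36a3 call did not survive the removal of any one array other than PMSG array 4 (adjusted p = 0.0581 to 0.0960 without each of the other 7), nor normexp background correction (adjusted p = 0.0655), nor testing all probes (adjusted p = 0.0530), nor slide row as a block (adjusted p = 0.0620). Slc36a1 (PAT1), which exports small amino acids from the lysosome, lay at -4.99, -5.00, -4.85 and -5.23 against -3.43, -4.69, -4.16 and -5.80. Its difference was 0.50 (SE 0.44, adjusted p = 0.399 by limma), and 0.93 without PMSG array 4 (adjusted p = 0.0315). Leaving out that array raised the share of all tested probes past the threshold from 34.2% to 45.1%. Slc36a4 (PAT4), also linked to amino acid sensing, lay at -4.46, -4.05, -4.37 and -4.26 against -4.64, -5.14, -5.04 and -4.90, without overlap, with a difference of -0.65 (SE 0.14, adjusted p = 0.00919 by limma). With normexp background correction the Slc36a4 difference was -0.17 (adjusted p = 0.187).

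Of the 60 genes, 15 had several probes and 11 had several tested probes. In 5 of these 11, Slc6a2, Slc6a5, Slc6a9, Slc7a1 and Slc36a4, one probe passed the threshold and another did not, and in 0 genes did probes pass in opposite directions. Where the probes of a gene disagree, the array files place them at different positions on the genome build rn4, but carry no exon or UTR annotation. Probes of opposite sign, none of them past the threshold, were also seen for Slc7a14, Slc38a6 and Slc43a2. The first 30 of the 60 bases of both probes are shown for the 3 of the 5 genes whose probes differ in sign. They read 5′ to 3′, all on the plus strand.
Slc7a1 probe, lower: gtcacagagggtcatgatactaatgagggc
Slc7a1 probe, not past: ggtaccctttgtccccgtacttcctgtctt
Slc36a4 probe, lower: aactctacatgtgtatcaagtggtttgtaa
Slc36a4 probe, not past: tttcatcctttgggagagtgtcctatctcc
Slc6a5 probe, lower: gcttattatatactgtgcattattcattta
Slc6a5 probe, not past: gatctggatcccgattatgttcgtgataaa
The Slc7a1 probes lie at chr12:7253393-7253451 and chr12:7247219-7247791. The second spans 573 bases of the genome and so bridges a gap. The Slc36a4 probes lie at chr8:12533308-12533367 and chr8:12534723-12534782, and the Slc6a5 probes at chr1:99793114-99793173 and chr1:99786137-99786196.

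The second Slc7a1 probe lay at -3.08, -3.70, -3.21 and -3.68 on control-labelled arrays and at -2.84, -3.39, -2.45 and -3.28 on PMSG-labelled arrays, with overlap, a difference of 0.43 (adjusted p = 0.203 by limma). The second Slc36a4 probe lay at -5.49, -5.19, -5.50 and -5.38 against -3.91, -5.30, -5.27 and -4.98, where PMSG array 1 alone stands high, a difference of 0.52 (adjusted p = 0.202 by limma). With the mean of each gene's probes in place of the first one, Slc7a1 (-0.11, adjusted p = 0.488), Slc36a4 (-0.06, adjusted p = 0.834) and Slc6a9 (0.51, adjusted p = 0.0527) no longer passed. The calls of Slc7a1 and Slc36a4 are therefore calls of 1 probe each.

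Slc6a5 (GlyT2), a glycine carrier of inhibitory neurons, shows the widest gap between its probes. The one that stands for the gene lay at -4.53, -3.66, -3.17 and -3.61 on control-labelled arrays and at -3.12, -3.86, -2.80 and -4.24 on PMSG-labelled arrays, a difference of 0.24 (adjusted p = 0.642 by limma). Its second probe lay at -5.28, -4.08, -4.92 and -5.36 against -7.96, -6.31, -6.88 and -6.71, and was well above background on all 4 control-labelled arrays but on 1 PMSG-labelled array. Its measured difference was -2.06 (SE 0.40, adjusted p = 0.00530 by limma), so control-labelled arrays were at least 2.74-fold higher, from the mean of the bright arrays over that of the dim ones at the higher of their own signal and the lowest signal well above background. Of 3 tested nerve markers, Tubb3 passed as lower, and the mean level of the 3 was -1.27 to -1.21 on control-labelled and -2.54 to -1.59 on PMSG-labelled arrays. Their part in the Slc6a5 values was not tested. The noradrenaline transporter Slc6a2 had a first probe at -1.13, -1.32, -0.98 and -1.41 against -0.69, -1.19, -0.72 and -1.13, a difference of 0.28 (adjusted p = 0.212). Its second probe, at -4.41, -5.39, -4.30 and -5.83 against -3.45, -4.32, -3.99 and -3.78, was 2.14-fold higher in arrays labelled PMSG (adjusted p = 0.0481 by limma).

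**Figure D3:**
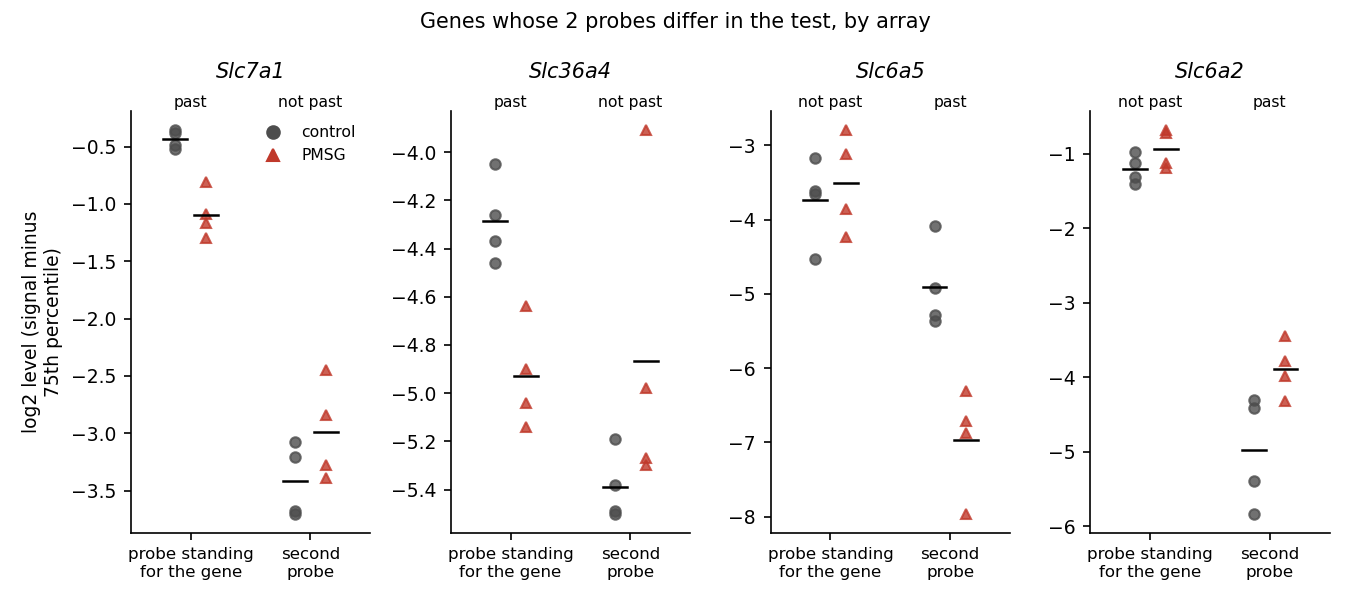
Log2 level on each array for both probes of Slc7a1, Slc36a4, Slc6a5 and Slc6a2, with grey circles for control-labelled and red triangles for PMSG-labelled arrays, black bars at group means, and above each probe whether it passed the threshold. For Slc7a1, Slc36a4 and Slc6a5 the probe that passed is lower in arrays labelled PMSG while the other is not.

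A single gene with a wide spread between arrays was Slc7a10 (asc-1), an exchanger of small neutral amino acids that is known as a surface marker of white adipocytes. It was chosen after its values were seen. It lay at -1.58, -3.78, 0.09 and -1.34 on control-labelled arrays and at -0.41, 0.46, 0.39 and -0.52 on PMSG-labelled arrays. The control-labelled arrays alone cover the range from the lowest array almost to the highest, and the difference of 1.63 (SE 0.72), larger than that of Slc38a5, did not pass (adjusted p = 0.117 by limma). Slc36a2 (PAT2), known from brown adipocytes and also chosen after its values were seen, lay at -2.42, -3.44, -1.53 and -2.89 against -1.70, -1.38, -1.34 and -2.66, a difference of 0.80 (SE 0.44, adjusted p = 0.193 by limma).

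The mean level of 7 adipocyte markers moved with both genes from array to array. It was -0.79, -2.17, 0.48 and -0.88 on control-labelled arrays and 0.17, 0.42, 0.65 and -0.71 on PMSG-labelled arrays, with control array 2 lowest and control array 3 high, as for Slc7a10. All 7 markers had signals above background on every array. Of the 7, Cidea passed the threshold (1.85, adjusted p = 0.00577 by limma) and 6 did not. Their part in the levels of Slc7a10 and Slc36a2 was not tested.

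**Figure D4:**
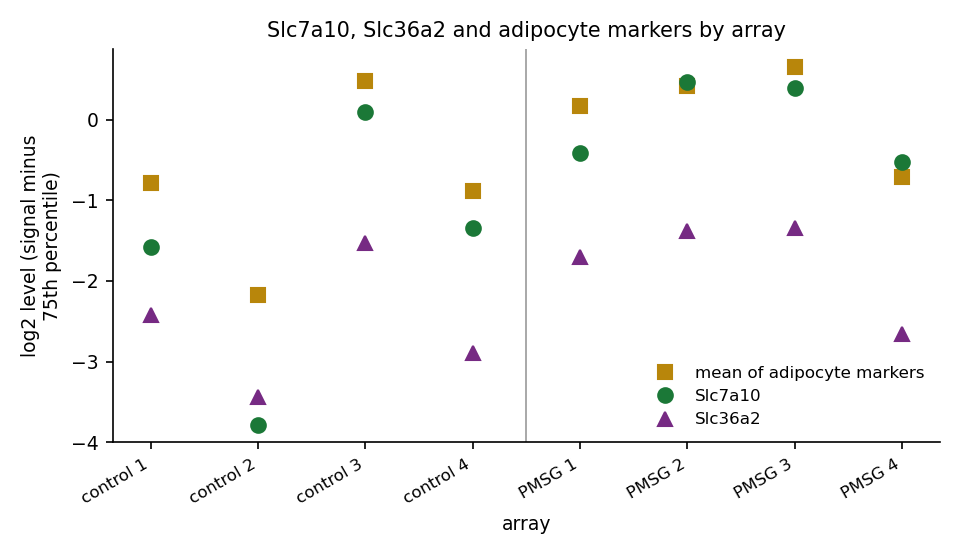
Log2 level on each of the 8 arrays for the mean of 7 adipocyte markers (squares), Slc7a10 (circles) and Slc36a2 (triangles), with a line between the control-labelled and PMSG-labelled arrays. All 3 are lowest on control array 2, and control array 3 is the highest control-labelled array for each.

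Outside the 7 families, 17 other amino acid transporters on the array were tested, and 7 passed (41.2%, against 34.5% of all genes), 4 higher and 3 lower, with a median difference of 0.24 against 0.12 for all genes. The largest differences were those of the mitochondrial carriers Slc25a18, a glutamate carrier (1.42, SE 0.14, adjusted p = 0.000253), and Slc25a13, an aspartate-glutamate carrier (-1.32, SE 0.15, adjusted p = 0.000449 by limma). Slc25a13 lay at -1.40, -1.47, -1.50 and -1.24 on control-labelled arrays and at -2.53, -2.73, -2.53 and -3.10 on PMSG-labelled arrays, and its close relative Slc25a12 was lower as well (-0.53, adjusted p = 0.00625). The vesicular GABA and glycine transporter Slc32a1 was lower (-1.18, SE 0.26, adjusted p = 0.00995).

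Amino acids inside the cell are sensed by proteins that recruit the kinase mTORC1 to the lysosome. Of 27 tested genes of this system, 9 passed (33.3%, against 34.5% of all genes), 4 higher and 5 lower, with a median of 0.06. This share is that of the background. The lower ones included Mtor, the kinase itself (-0.67, adjusted p = 0.00205), and Rheb, its direct activator (-0.75, SE 0.11, adjusted p = 0.00132). Sec13, a subunit of GATOR2, was lower too (-0.83, SE 0.12, adjusted p = 0.00148). The GATOR2 subunits Wdr24 (0.11, adjusted p = 0.329) and Mios (-0.19, adjusted p = 0.117 by limma) did not pass. The higher ones included the Rag GTPase Rragd (1.11, SE 0.23, adjusted p = 0.00767) and folliculin, Flcn (0.69, adjusted p = 0.00192 by limma). Among the sensors of single amino acids, the arginine sensor Castor1, listed under its older name Gatsl3, was higher (0.64, adjusted p = 0.00168), and the leucine sensor Sesn2 did not pass (0.36, adjusted p = 0.0743).

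Of 30 tested genes of amino acid metabolism, 16 passed (53.3%, against 34.5% of all genes), with a median of -0.10. In arrays labelled PMSG 4 were higher (13.3%, against 18.0%) and 12 lower (40.0%, against 16.5%). This list, like those before it, was chosen with earlier results of these data known, so the shares only describe the list. Asns, asparagine synthetase, lay at 1.04, 1.56, 1.82 and 2.20 on control-labelled arrays and at -1.10, -0.57, -0.61 and -0.93 on PMSG-labelled arrays. The groups stood far apart, with a difference of -2.46 (SE 0.25, adjusted p = 0.000304 by limma), or 5.50-fold. Of the serine and glycine synthesis genes in the list, Phgdh (-0.98), Psph (-0.44) and Shmt2 (-1.29) were lower, and Psat1 (0.13, adjusted p = 0.482) and Shmt1 (0.30, adjusted p = 0.167) did not pass. The cytosolic and mitochondrial aspartate aminotransferases Got1 (-1.65, SE 0.12, adjusted p = 0.000105) and Got2 (-0.57) were both lower, as was Gpt2 (-1.22), whereas the alanine aminotransferase Gpt was higher (1.01, adjusted p = 0.00359). Arg2, the mitochondrial arginase, was higher (1.89, SE 0.20, adjusted p = 0.000375 by limma), and the enzyme Ass1, which rebuilds arginine from citrulline, was lower (-0.90, adjusted p = 0.0021).

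**Figure D5:**
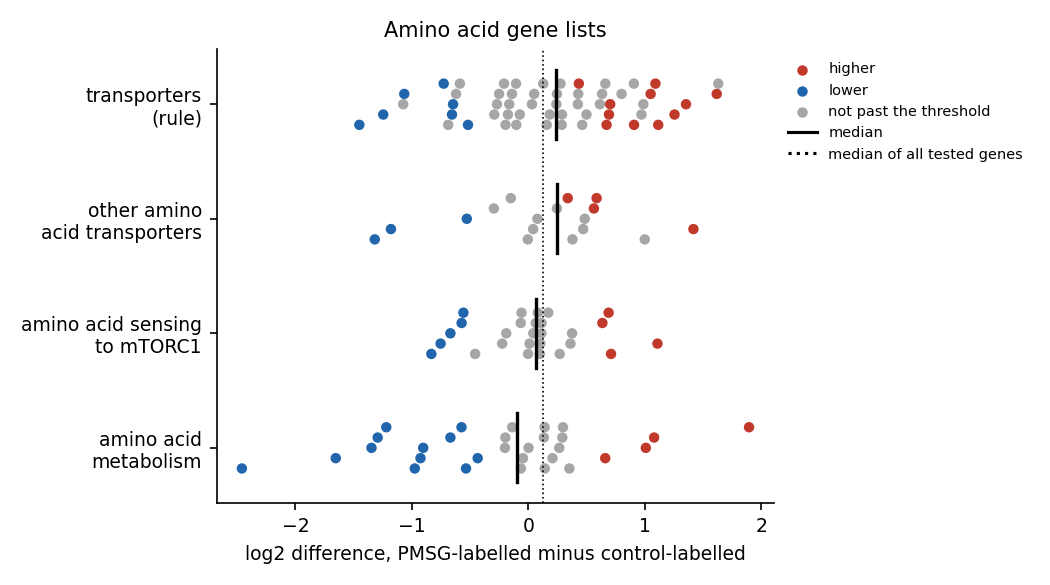
Log2 difference, PMSG-labelled minus control-labelled, for each tested gene of the 4 lists, red where higher and blue where lower past the threshold, with a solid bar at each list's median (0.24, 0.24, 0.06 and -0.10 from top to bottom) and a dotted line at the median of all tested genes (0.12). The outermost point on the left is Asns at -2.46.

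Among the 5 transporter genes that were not tested are Slc1a2, Slc6a14, Slc6a15 and Slc6a19. Slc6a15, a carrier of branched-chain amino acids and proline, was well above background on 0 control-labelled and 3 PMSG-labelled arrays. Its measured values, -7.36, -8.32, -7.79 and -8.17 on control-labelled arrays and -5.98, -6.33, -6.21 and -6.85 on PMSG-labelled arrays, did not overlap, but with the control-labelled arrays at background the difference is bounded only at 1.11-fold or more. Slc6a14 and Slc6a19 were well above background on 1 array each.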

How the data were processed

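Per the file headers, spot intensities were extracted with Agilent Feature Extraction 11.5.1.1, and the deposited scanner files give a processed signal and background calls for 58717 non-control spots per array, with 60-base probes placed on rn4 (RGSC v3.4). Log2 values that the authors deposited for the same probes, used as an alternative, correlated in each column most with the array of that name, and 0 columns were not used.

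Outlier spots were dropped, log2 signals of a probe's spots were averaged, and 17 probes without a usable spot on some array were left out. Above background means that a share of 0.5 or more of a probe's usable spots carried the well-above-background call. The comparison used limma 3.58.1 (R 4.3.3) without covariates, after a check of the procedure on simulated data. All arrays share 1 slide and 1 scan date, and the 4 arrays per group limit the precision. For a bound, dim arrays took the higher of their own signal and their lowest signal above background.

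The members and gene lists were chosen with earlier results of these data known. Named are all transporters past the threshold, those with only a bound, 15 key transporters, genes whose probes differed in call, and the 3 largest differences past the threshold per list. The other genes named were chosen after their values were seen. The values of 1 untested gene are not reported here. An accession match to RefSeq (GRCr8) gave a symbol for 70 of the 75 probes, 1 of them different from the array's (Slc6a20a for Slc6a20). Alternatives were quantile and median scaling, normexp background, the deposited values, other filters on dim probes, array weights, slide row and replicate number as blocks, the mean of a gene's probes, and leaving out each array.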

Additional observations from a re-analysis of the deposited data

Results flagged for a closer look

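Over 62 groups of 4 values, of the tested transporters named with values on every array, 2 had 1 array far from the other 3, where chance alone gives about 1 in 20, or 3.1. For Slc1a1, PMSG array 4 lay at -3.44 and the others from -4.49 to -4.37, a gap of 0.887 of the group's range. For Slc38a1, PMSG array 4 lay at -4.57 and the others from -5.49 to -5.41, a gap of 0.915 of the range.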

How the results depend on the processing

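Over 18 alternatives, no value of the 18 called genes changed sign. Of the uncalled key genes, Slc1a4 did, at 0.06 without PMSG array 4. The calls of Slc3a2, Slc6a6, Slc6a13, Slc6a17, Slc7a6, Slc7a11 and Slc38a5 held under all of them, and 11 of the 18 called genes lost their call under at least 1. Leaving out 1 array gave 5 to 16 higher and 7 to 9 lower transporters, with medians of 0.13 to 0.29 and 6524 to 11301 of all probes past the threshold. The count of higher genes was 5 without control array 2 or PMSG array 3, 6 without control array 4 or PMSG array 1, and 7 without control array 1 or PMSG array 2. It was 16 without PMSG array 4, which had the lowest array weight (0.279), and 16 with array weights, which also called 9 lower. The share of all tested probes past the threshold moved as well. It was 45.1% without PMSG array 4 and 43.5% with array weights, against 34.2% in the main comparison. Without any one of the other arrays it was 26.0% to 31.6%. Median centring gave 11 lower, and quantile normalisation a median of 0.058; the cause was not tested. The deposited values gave the same 18 calls. With a replicate block there were 10 higher and 7 lower (7346 of all probes), losing Slc6a4, Slc6a12, Slc6a20 and Slc7a9. Same-numbered arrays correlated in their deviations at 0.0444, 0.0361, 0.183 and -0.0192, so the numbers were not taken to pair arrays. The mean of a gene's probes was not run for the count over all probes. Slc36a3, Slc6a20 and Slc6a9 lost their calls most often, under 10, 8 and 7 alternatives. For the 5 untested genes the signal over background was the limit.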
